A study of Mus musculus with 6 samples.

Results

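Conventional CD4+ T cells, the helper arm of the T cell compartment, were a small set among the CD45+-enriched cells of CT26 tumors. They were chosen by a deposited cell type label and by transcripts. A cell had to carry the label T cell EFF (effector) or T cell MEM (memory), 1 or more unique molecular identifiers (UMIs, each standing for 1 captured transcript) of *Cd4*, 1 or more of the CD3 chain genes *Cd3d*, *Cd3e* or *Cd3g*, and none of *Cd8a*, *Cd8b1* or *Foxp3*. Of 4812 cells with either label and 33961 cells in all, 208 met the rule. The label came from the whole profile of each cell and the rest of the rule from its counts, so every level below is a description of cells selected on these same values and carries no test. By the sample labels, 6 tumors formed 3 groups of 2, treated with vehicle, with a low dose or with a high dose of an antibody that binds PD-1 and carries the ligand of GITR (PD-1 GITR-L bispecific). The high dose was 30 mg/kg, and the low dose is given as 10 mg/kg in one field of the labels and 30 mg/kg in another. All groups shared the host, female Balb/c mice, and the tumor, the mouse colorectal carcinoma line CT26 grown under the skin, and beads were used to enrich the CD45+ cells of each tumor. The count table holds 4 libraries, named M1, M2, M5 and M6, and these names match no sample's labels, so no library was assigned to a treatment, none is a replicate, and no treated and control cells were compared.

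CD4+ helper T cells recognise peptides on MHC class II, with the CD4 co-receptor binding the MHC molecule. Once activated they act on other cells through surface ligands of the TNF family, such as CD40 ligand, which licenses dendritic cells and B cells, and through cytokines. In tumors they share the CD4 lineage with regulatory T cells, which are defined by *Foxp3* and restrain the response. Both antibody targets are found on activated T cells: PD-1 (*Pdcd1*) is an inhibitory receptor, and GITR (*Tnfrsf18*) is a costimulatory receptor of the TNF receptor family that is abundant on regulatory T cells.

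Conventional CD4+ T cells made up 4.35% of the 4784 CD3-positive cells of both labels (95% exact binomial interval 3.79 to 4.96; all intervals here cover counting error only) and 0.612% of all cells. M1 held 22 of them, M2 24, M5 69 and M6 93. As shares of CD3-positive cells this was 2.28%, 2.26%, 4.57% and 7.45% in the order M1, M2, M5 and M6, which is the order used throughout. The intervals of M1 (1.44 to 3.44) and M2 (1.45 to 3.34) overlapped, and both lay below those of M5 (3.57 to 5.74) and M6 (6.06 to 9.05). The depth of these cells varied as well, with medians of 4491, 4222, 6173 and 6038 UMIs a cell. When the rule was applied to cells thinned to 2000 UMIs each, the shares were 1.63%, 1.79%, 4.1% and 5.53%. M5 and M6 stood above M1 and M2 at equal depth too, but not without the members that carried *Il2ra* or *Ikzf2*, where the shares were 1.56%, 1.13%, 1.39% and 2.96% and M5 lay below M1. Most members carried the memory label, 137 of 208 (65.9%), and did so in each library (68.2%, 75%, 65.2% and 63.4%).

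**Figure D1:**
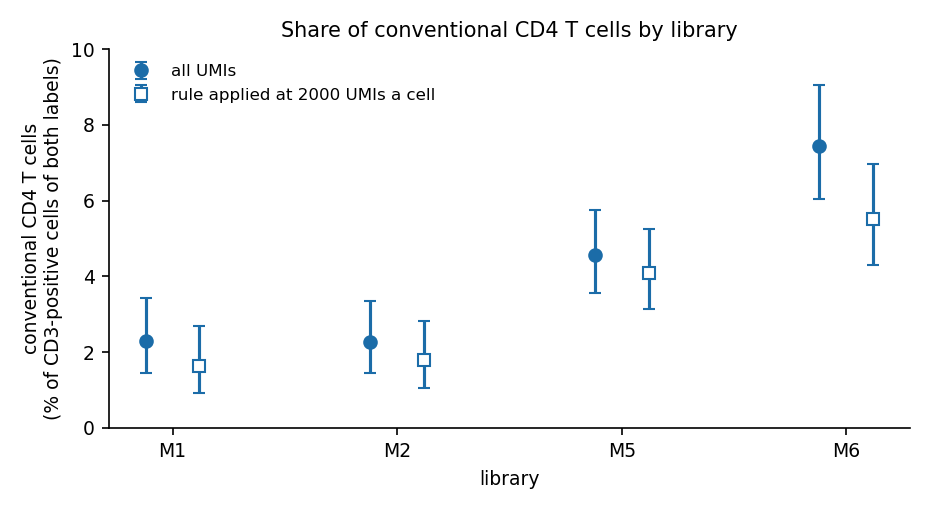
Conventional CD4+ T cells as a percentage of the CD3-positive cells labelled T cell EFF or T cell MEM (y axis) in each of the 4 libraries (x axis). Filled circles use all UMIs and open squares apply the rule to cells thinned to 2000 UMIs, bars are 95% exact binomial intervals, and M6 is highest at 7.45% and 5.53%.

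The members had a median of 5753 UMIs and 2053 genes a cell (lowest 1870 UMIs, highest 22956) and 1362758 UMIs together, against medians of 9148 and 7679 UMIs in the CD8+ and Foxp3-positive cells of the same labels. A median of 2 *Cd4* UMIs stood behind each of them: 77 members had exactly 1, the least the rule accepts, and 10 was the highest. Every member had at least 2 CD3 chain UMIs, with a median of 16. Just outside the rule lay 196 CD3-positive cells with no UMI of *Cd4*, *Cd8a*, *Cd8b1* or *Foxp3*, at a median of 3593 UMIs, and 30 cells with *Cd4* and exactly 1 *Foxp3* UMI. *Tnfsf8*, which encodes the CD30 ligand, was at 237 CPM (UMIs of a gene per 1000000 UMIs of the pooled cells) in members with 1 *Cd4* UMI, at 422 CPM in those with 2 or more, at 47.1 CPM in the cells without any of the 4 transcripts, and at 26 CPM in the cells with 1 *Foxp3* UMI. A further 348 CD3-positive cells carried UMIs of *Cd4* and of a CD8 chain, at a median of 20480 UMIs, and were left out. No doublet caller was run.

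Absence of a *Foxp3* UMI does not show absence of the transcript. *Foxp3* stood at 345 CPM in the 135 Foxp3-positive cells, and 58.2% (95% exact binomial interval 49.4 to 66.7) of them kept a *Foxp3* UMI when thinned to 2000 UMIs. Of the 160 cells that met the rule after thinning, 118 were members by all their UMIs, 29 had a *Foxp3* UMI among the UMIs removed and 23 had one of a CD8 chain, and some had both. *Ikzf2*, which encodes Helios, and *Il2ra*, which encodes CD25, are high in regulatory T cells, and 123 of the 208 members had a UMI of at least 1 of them, 36 of both. At 2000 UMIs, 6.8% (95% exact binomial interval 3.77 to 11.1) of members carried both transcripts, against 37.3% (95% exact binomial interval 29.1 to 46.1) of Foxp3-positive cells and 4.22% of CD8+ cells. How many members express *Foxp3* without a captured UMI was not tested, and some values are also given without the members that carried *Il2ra* or *Ikzf2*.

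Markers of conventional CD4+ T cells were checked first. *Cd4* (chromosome 6, 124864692 to 124888221, GRCm38, GENCODE annotation) stood at 375 CPM, with 314, 362, 377 and 388 CPM in M1, M2, M5 and M6, but the rule required it. *Cd3e* was at 478 CPM, beside 480.3 CPM in CD8+ cells, and the rule used it too. *Cd40lg* (chromosome X, 57212143 to 57224042), the CD40 ligand gene, is the marker that the rule did not use by name. It had 48 UMIs in 38 members, 35.2 CPM, against 1.25 CPM in CD8+ cells and 1 UMI in all Foxp3-positive cells. Markers of other lineages were not all at 0. *Cpa3* of mast cells and *Flt3* of dendritic cells had no UMI, *Col1a1* of fibroblasts and *Csf1r* of macrophages had 1 each, and *Cd79a* of B cells had 3. Other genes of the same lists had more: *Kit* 66 UMIs in 36 members, *H2-Aa* 187 UMIs in 52 members, *Ighm* 39 UMIs in 21 members and *Apoe* 98 UMIs in 42 members. The 9 NK cell genes summed to 627 CPM in members and 1322 CPM in CD8+ cells, with *Klrd1*, which T cells also express, at 396 UMIs in 84 members, *Tyrobp* at 169 UMIs in 48 members and *Ncr1*, a defining NK cell receptor gene, at 22 UMIs in 9 members. The 14 macrophage and monocyte genes summed to 724 CPM in members, 826 CPM in CD8+ cells and 1239 CPM in Foxp3-positive cells. *Lyz2*, a lysozyme gene of myeloid cells, stood at 199.6 CPM in members and 6633 CPM in cells labelled Myeloid. In all, 4 members had over 0.5% of their UMIs in those 14 genes, and 13 had over 10% mitochondrial UMIs. Of 111 cell barcodes that occurred in more than 1 library, 3 belonged to a member and none to a pair of members.

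Conventional CD4+ T cells were set against the 3709 CD8+ T cells of the same labels, those with a *Cd8a* or *Cd8b1* UMI, a CD3 chain UMI and none of *Cd4* or *Foxp3*. A gene was called when it was at least 2-fold apart in the same direction in each of the 4 libraries, on log2(CPM + 1), among genes of 20 CPM or more in either set. Of 6041 genes, 87 (1.44%) were higher in the members by this rule and 142 (2.35%) were lower, and the counts include *Cd4*, *Cd8a* and *Cd8b1*, which the rule itself fixed. The 8 genes of stroma and CT26 cells summed to 66 CPM in members and 249 CPM in CD8+ cells, with *Col1a2* and *Sparc* called lower, and their part in the calls was not tested. The label mix of the sets also differed, since the memory label was carried by 65.9% of members, 18.1% of CD8+ cells and 48.9% of Foxp3-positive cells. Within the label T cell EFF alone 48 genes of 6121 were higher and 108 lower, 33 and 65 of them among the calls above, and within T cell MEM alone 47 of 5934 were higher and 85 lower, with 36 and 47 shared. Fewer cells stood behind each value there. Both sets are cells chosen by their counts, so the calls describe these cells and are no test. The pooled fold of a gene is given with its exact conditional 95% interval.

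The genes of 3 TNF family ligands, *Tnfsf8*, *Tnfsf11* and *Cd40lg*, were called higher in the members than in CD8+ cells. *Tnfsf8* (chromosome 4, 63831308 to 63861347), whose product binds CD30 on activated lymphocytes, stood at 432, 386, 309.8 and 385 CPM in the members of M1, M2, M5 and M6 and at 12.6, 13.5, 17.9 and 39.3 CPM in the CD8+ cells. The lowest member value was thus above the highest CD8+ value, and the pooled level was 17.8-fold (95% interval 16 to 19.9) higher. *Tnfsf11* (chromosome 14, 78277445 to 78308043), which encodes RANKL, a ligand that acts on dendritic cells and osteoclast precursors, had 244, 493, 327 and 424 CPM in members against 33.9, 23.7, 41.6 and 94.5 CPM, and was 8.01-fold (95% interval 7.26 to 8.82) higher. The libraries did not overlap for either gene. *Cd40lg* was far less abundant, with 62.9, 16.4, 33.7 and 34.4 CPM in members and 0.724, 0.467, 1.4 and 2.44 CPM in CD8+ cells, a pooled difference of 28.1-fold (95% interval 18.7 to 41.9). Within each label alone *Tnfsf8* and *Tnfsf11* were called higher again, and *Cd40lg* within T cell MEM. The values of *Cd40lg* in M1 and M2 rest on 8 and 2 UMIs.

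**Figure D2:**
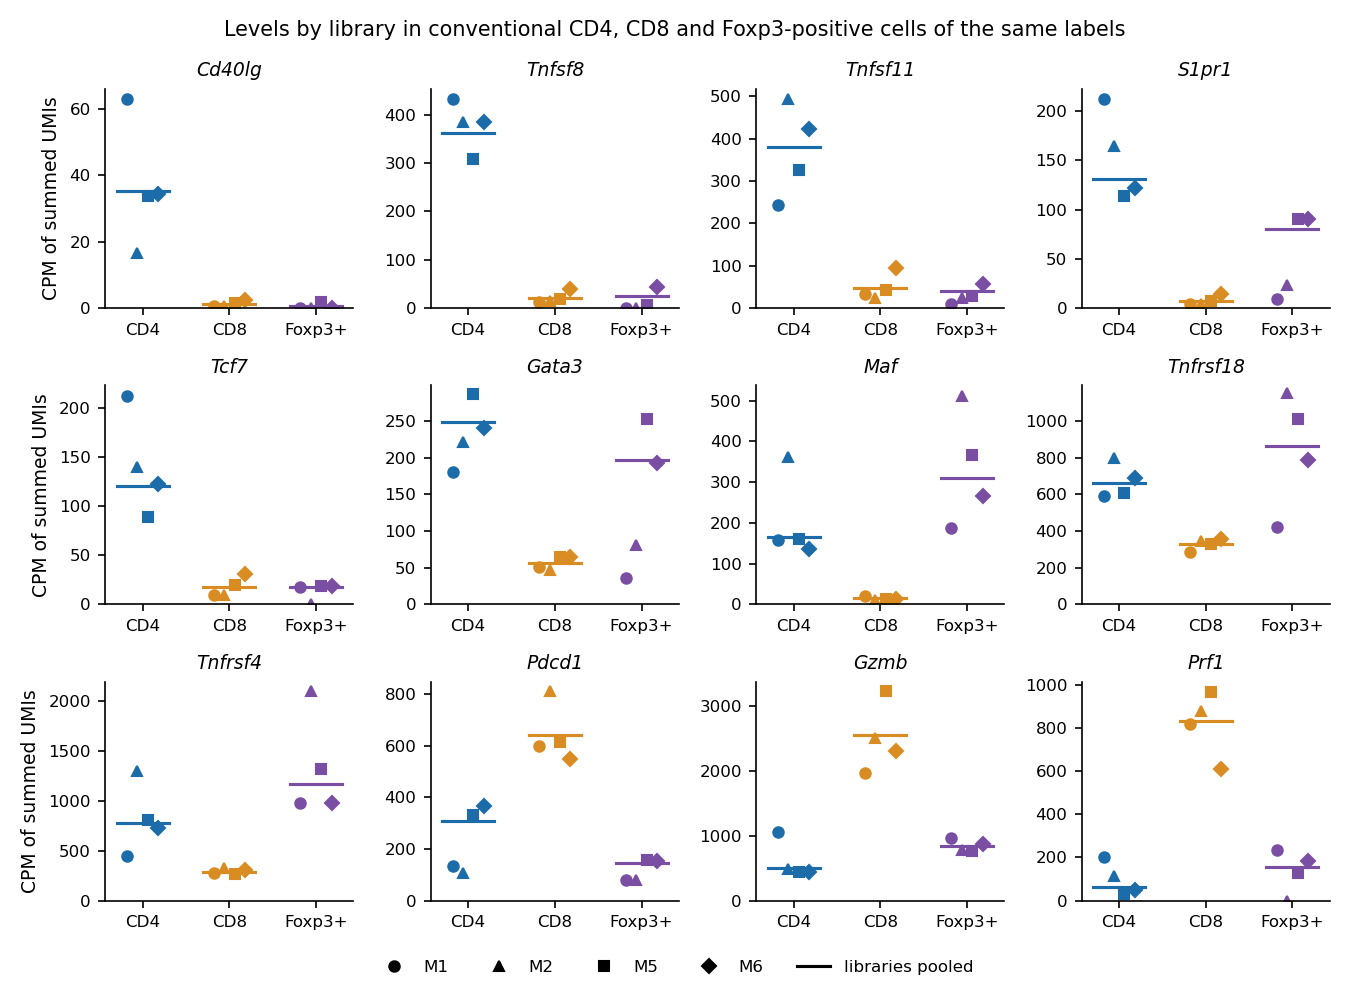
Level of 12 genes in CPM of summed UMIs (y axes, each from 0) in conventional CD4+, CD8+ and Foxp3-positive cells of the labels T cell EFF and T cell MEM (x axes). Each symbol is 1 library and each line the libraries pooled; *Cd40lg*, *Tnfsf8*, *Tnfsf11* and *Tcf7* lie higher in the CD4+ cells than in both other sets in every library, and *Prf1* lies lower than in CD8+ cells in every library.

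The same ligands were found in a minority of the members at equal depth. When each cell was thinned to 2000 UMIs, which left out 2 members, 31.1% (95% exact binomial interval 24.8 to 37.9) of members carried a *Tnfsf8* UMI, 28.6% (95% exact binomial interval 22.6 to 35.3) a *Tnfsf11* UMI and 7.77% (95% exact binomial interval 4.5 to 12.3) a *Cd40lg* UMI. Without thinning the shares were 39.9%, 39.4% and 18.3%. At the same depth the shares for *Tnfsf8*, *Tnfsf11* and *Cd40lg* were 4.22%, 6.48% and 0.248% in CD8+ cells. Cells labelled NK cells (median 5397 UMIs) had 0.45%, 0.545% and 0.0237%. Cells labelled Stroma (median 40692 UMIs) had 0.0511%, 0.0256% and 0%, the last being 0 of 15642 cells, which allows a share of up to 0.0192%. Thinning removed a larger part of the UMIs of deeper cells, and whether the UMIs in these labels were free RNA was not tested. Over whole labels, unthinned, these genes stood at 8.55, 14.9 and 0.816 CPM in Myeloid and 2.76, 4.47 and 0.0253 CPM in NK cells. *Tnfsf8* or *Tnfsf11* was seen in 43.2% (95% exact binomial interval 36.3 to 50.3) of members, with 45.5%, 47.8%, 36.8% and 46.2% in the 4 libraries, which do not differ beyond their counting intervals. Across all 12 cell type labels, whether or not a cell carried *Cd4*, *Cd40lg* was highest in cells labelled NKT (17.8 CPM), T cell Naive (13.8) and T cells (6.84), above T cell MEM (4.9) and T cell EFF (1.88).

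**Figure D3:**
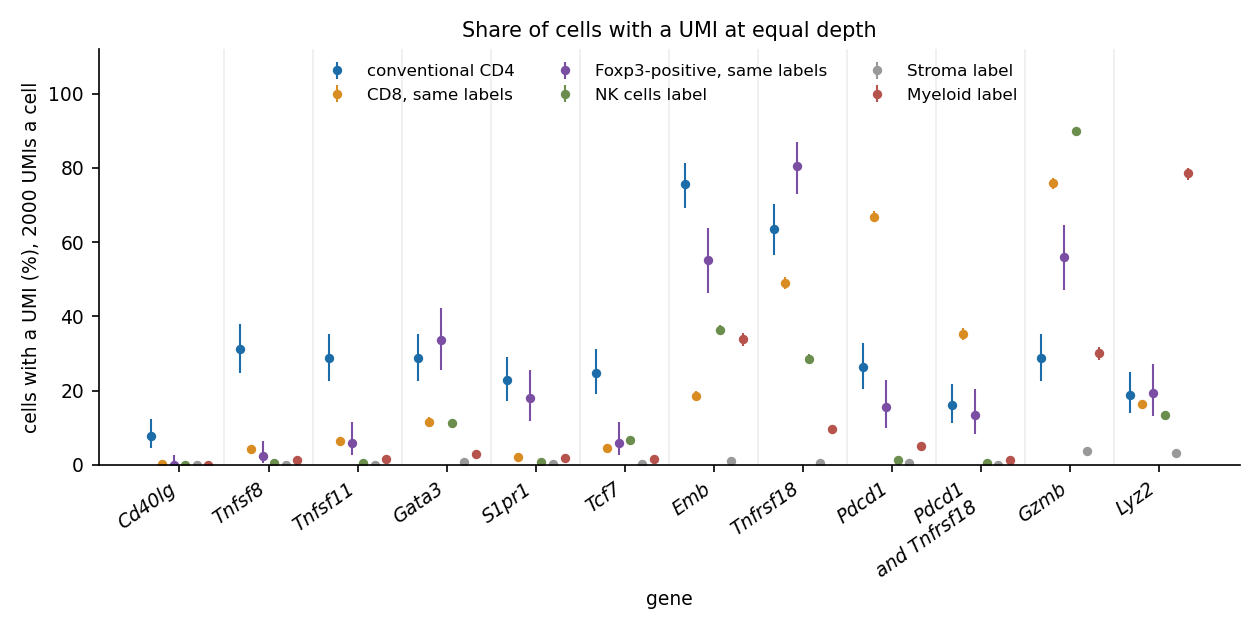
Percentage of cells with a UMI of each gene or of both genes named (y axis), each cell thinned to 2000 UMIs, in conventional CD4+, CD8+ and Foxp3-positive cells of the same labels and in cells labelled NK cells, Stroma and Myeloid. Bars are 95% exact binomial intervals; *Tnfsf8* reaches 31.1% in CD4+ cells and 4.22% in CD8+ cells, and *Pdcd1* 26.2% and 66.9%.

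Other helper ligands and cytokines were uneven. Of 25 genes on that list, 15 reached 20 CPM in members, and of the 16 compared with CD8+ cells 3 were called higher, the 3 ligands above, and 4 lower: *Ifng*, *Ccl3*, *Ccl4* and *Xcl1*. The most abundant were *Ltb*, a lymphotoxin chain (901 CPM), the chemokine gene *Ccl5* (649 CPM), *Tnfsf11* and *Tnfsf8*, with 407 of 884 *Ccl5* UMIs in the 5 members with most. *Ifng*, the interferon gamma gene, had 47.2, 57.5, 75.9 and 142 CPM in members against 270.3, 280.2, 437 and 631 CPM in CD8+ cells, 3.93-fold (95% interval 3.33 to 4.68) lower, and the libraries did not overlap. *Csf2*, which encodes GM-CSF, had 94.3, 82.2, 82.2 and 131 CPM against 34.4, 21.5, 25.6 and 88.3 CPM and was not called. *Il2* had 7 UMIs in 6 members and *Il10* 10 in 5. *Il3*, *Il17a* and *Il22* had none, and with 1362758 UMIs sampled a count of 0 allows up to 3. Within T cell EFF alone *Ifng*, *Ccl3*, *Ccl4* and *Xcl1* were called lower and *Csf2* higher, and within T cell MEM alone *Ccl5* and *Xcl1* lower.

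Lineage programmes of helper cells were read one by one from gene lists. Of 12 T helper 2 genes, 7 reached 20 CPM in members and were compared, with 2 called higher than in CD8+ cells and 0 lower, and a median log2 ratio of 0.69 beside -0.03 over all genes compared. *Gata3*, the transcription factor that directs T helper 2 fate and also acts in other T cells, had 181, 222, 287 and 241 CPM against 50.7, 47, 64.4 and 64.1 CPM, 4.38-fold (95% interval 3.9 to 4.9) higher with no overlap. *Maf*, a transcription factor of several helper fates, had 157, 362, 160.2 and 135 CPM against 19.1, 11.3, 14.1 and 12.2 CPM and was 11.7-fold (95% interval 9.97 to 13.6) higher. The cytokines of this programme were scarce: *Il5* and *Il9* had no UMI, *Il4* had 7 UMIs in 2 members, and 40 of the 55 *Il13* UMIs were in 1 cell of M6. Against Foxp3-positive cells none of the 8 T helper 2 genes compared was called. The list summed to 782 CPM in members and 877 CPM in Foxp3-positive cells.

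Of 15 T helper 1 genes, 12 reached 20 CPM. *Tbx21*, which encodes T-bet, the defining factor of this fate, had 70.7, 49.3, 16.9 and 26.6 CPM in members and 77.7, 94.2, 67.6 and 64.8 CPM in CD8+ cells and was not called. *Cxcr3*, a chemokine receptor of T helper 1 cells, was the 1 gene of the list called higher, with 118, 123, 114 and 131 CPM against 9.23, 14.5, 25.7 and 37.2 CPM, and *Ifng* the 1 called lower. *Cxcr6*, a receptor of T cells held in tissues, was among the most abundant, at 330.1, 403, 588 and 524 CPM and 509.7, 717, 615 and 525 CPM. Of 12 T helper 17 genes, 4 reached 20 CPM and *Il17a*, *Il17f*, *Il22* and *Il23r*, the cytokines of this fate and a receptor, had no UMI. *Rora*, on the same list but also expressed by other T cells, was 4.27-fold (95% interval 3.99 to 4.57) higher than in CD8+ cells, at 693 CPM. Within 1 label alone, *Maf* was called higher in both T cell EFF and T cell MEM, *Gata3* and *Rora* in T cell EFF, and *Cxcr3* in neither.

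Of 15 T follicular helper genes, 8 reached 20 CPM and 4 were called higher, *Slamf6*, *Cd40lg*, *Tcf7* and *Btla*, with none lower. Within 1 label alone, *Btla* was called in both, *Slamf6* in T cell EFF, and *Cd40lg* and *Tcf7* in T cell MEM. The genes that define this fate were not prominent: *Cxcr5*, the receptor that leads cells into B cell follicles, had no UMI, *Il21* had 2 UMIs in 1 member, and *Bcl6* was at 15.7, 16.4, 19 and 20.3 CPM beside 8.32, 5.42, 14.4 and 14.6 CPM in CD8+ cells. *Icos*, a costimulatory receptor on this list, was at 879.8 CPM, 2.13-fold (95% interval 2 to 2.25) higher but not by 2-fold in every library. Of 7 genes of gamma delta and innate-like T cells, 0 reached 20 CPM in members, and *Tcrg-C2*, with no UMI in members and 24.7 CPM in CD8+ cells, was the 1 compared and was called lower. Reads of the gamma chain constant genes can be split among close copies, so its level is uncertain. *Trdc*, on the same list, had 22 UMIs in 11 members, with 78.6, 32.9, 10.5 and 4.69 CPM by library. The list summed to 118, 41.1, 16.9 and 10.9 CPM in members and 61.1, 46.6, 40.2 and 36.4 CPM in CD8+ cells, so that M1 ran the other way. Within T cell EFF alone *Tcrg-C2* was called lower again, and within T cell MEM alone no gene of this list was called.

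All 10 genes of naive and circulating T cells reached 20 CPM in members, 6 were called higher and 0 lower, and the median log2 ratio was 1.76. *S1pr1* (chromosome 3, 115710433 to 115715072), the receptor through which lymphocytes leave tissue, had the largest median log2 ratio of all called genes outside the rule, 4.41, with 212, 164, 114 and 122 CPM in members and 3.8, 4.39, 6.81 and 13.9 CPM in CD8+ cells. *Tcf7*, which encodes the factor TCF-1 of naive and stem-like T cells, had 212, 139.7, 88.5 and 122 CPM against 9.86, 9.34, 19.8 and 30.5 CPM and was 6.93-fold (95% interval 5.82 to 8.21) higher. *Klf2*, which drives *S1pr1*, was 2.67-fold (95% interval 2.45 to 2.91) higher, *Klf3* 4.46-fold and *Lef1* 3.51-fold. *Il7r*, *Satb1*, *Ccr7* and *Il6ra* were not called, with 406, 456, 423 and 21.3 CPM in members against 152, 279, 367 and 6.96 CPM. These genes also follow the label, and within T cell MEM alone 4 of 10 were called higher, *Tcf7*, *S1pr1*, *Klf2* and *Klf3*, with a median log2 ratio of 0.84, and within T cell EFF alone 0 of 9, with a median of 0.95. *S1pr1* stood at 9.32 CPM over all cells labelled T cell EFF and 72.1 CPM over those labelled T cell MEM. The naive label was excluded by the rule, and cells labelled T cell Naive had 368 CPM of *S1pr1*. Against Foxp3-positive cells *Tcf7* was the 1 of these 10 genes called higher and 0 were called lower, with a median log2 ratio of 0.76.

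The remaining genes among the 12 with the largest ratios came from no single list. *Emb*, which encodes embigin, a partner of lactate transporters, was the most abundant, with 1218, 953, 931 and 924 CPM in members and 63.2, 55.3, 169.5 and 300.4 CPM in CD8+ cells. At 2000 UMIs 75.7% (95% exact binomial interval 69.3 to 81.4) of members carried it against 18.6% of CD8+ cells and 36.3% of NK cells. *Emb* also follows the label, at 152 CPM over all cells labelled T cell EFF and 608 CPM over those labelled T cell MEM. The part of the label mix in its ratio was not tested. *Tbc1d4*, a regulator of glucose transporter traffic, was 10.3-fold (95% interval 8.87 to 11.9) higher at 173 CPM. *Trat1*, an adaptor that binds the T cell receptor complex, was 40.8-fold (95% interval 28 to 59.7) higher, and *Tnfrsf25*, the receptor DR3 for the TNF family ligand TL1A, 23.2-fold (95% interval 15.9 to 33.8). *St6gal1*, a sialyltransferase gene, *Tnfrsf19*, *Krt83* and A630023P12Rik completed the list, at 30.1 CPM for *Krt83* and 27.2, 27.2 and 42.6 CPM for *Tnfrsf19*, A630023P12Rik and *St6gal1*.

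Both targets of the bispecific were found in the members. GITR (*Tnfrsf18*; chromosome 4, 156026164 to 156028895) stood at 589.5, 797, 607 and 689.8 CPM in M1, M2, M5 and M6, beside 285, 347, 328 and 354 CPM in CD8+ cells and 421, 1153, 1014 and 789 CPM in Foxp3-positive cells. Every library was higher in CD4+ than in CD8+ cells, though not by 2-fold in each, while the Foxp3-positive values lay on both sides of the members' values. PD-1 (*Pdcd1*; chromosome 1, 94038305 to 94052553) stood at 134, 107, 331 and 366 CPM in members, 598, 811, 613 and 549 CPM in CD8+ cells and 80.5, 81.5, 157 and 151 CPM in Foxp3-positive cells. In each library it was lower in members than in CD8+ cells, 2.08-fold (95% interval 1.88 to 2.29) in the pooled counts, but not by 2-fold in every one, and M1 and M2 had less of it than M5 and M6. Without the members that carried *Il2ra* or *Ikzf2*, *Tnfrsf18* was at 547 CPM and *Pdcd1* at 226 CPM.

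At 2000 UMIs a cell, 63.6% (95% exact binomial interval 56.6 to 70.2) of members carried a *Tnfrsf18* UMI and 26.2% (95% exact binomial interval 20.3 to 32.8) a *Pdcd1* UMI. Both were seen in 16% (95% exact binomial interval 11.3 to 21.8), *Tnfrsf18* alone in 47.6%, *Pdcd1* alone in 10.2% and neither in 26.2%. The share with both was 4.55%, 8.7%, 10.3% and 24.7% by library, and 8.85% without M6, so M6 carries much of the pooled value. CD8+ cells had both in 35.2% (95% exact binomial interval 33.7 to 36.8) and Foxp3-positive cells in 13.4% (95% exact binomial interval 8.16 to 20.4). In NK cells, Stroma and Myeloid cells the share with both was 0.427%, 0.0192% and 1.37%. Unthinned, 41.8% of members and 80.2% of CD8+ cells had both. Of the ligands, *Cd274* and *Pdcd1lg2*, which encode PD-L1 and PD-L2, stood at 99.1 and 74.8 CPM in members, and *Tnfsf18*, the GITR ligand gene, had no UMI.

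All 13 costimulation genes reached 20 CPM in members, 4 were called higher than in CD8+ cells and none lower, with a median log2 ratio of 1.07. The called genes were *Cd2*, *Tnfrsf25*, *Slamf6* and *Cd40lg*, and *Cd2*, an adhesion receptor gene, was 3.12-fold (95% interval 2.94 to 3.3) higher. Within T cell EFF alone *Slamf6* and *Cd2* were called higher, and within T cell MEM alone *Tnfrsf25* and *Cd40lg*, with *Cd226* lower. Against Foxp3-positive cells *Tnfrsf25*, *Cd40lg* and *Cd226* were called higher and none lower, with a median log2 ratio of -0.34. The list summed to 5103 CPM in members and 6693 CPM in Foxp3-positive cells. The most abundant genes in members were *Cd2* (926 CPM), *Icos* (879.8), *Tnfrsf4*, which encodes OX40 (781), and *Tnfrsf18* (661). OX40 had 448, 1298, 807 and 729 CPM in members and 278, 328, 265 and 305 CPM in CD8+ cells, higher in each library but under 2-fold in M1. Of the 13 genes of inhibitory receptors and exhaustion, 9 reached 20 CPM, 1 was called higher, *Btla*, and 4 lower, *Havcr2*, *Cd160*, *Entpd1* and *Nr4a2*. Within each label alone *Btla* was called higher and *Havcr2* and *Nr4a2* lower, with *Entpd1* lower in T cell EFF alone and *Cd160* and *Lag3* in T cell MEM alone. *Havcr2*, which encodes TIM-3, was 8-fold (95% interval 5.23 to 12.9) lower. *Lag3* had 94.3, 238, 63.2 and 113 CPM against 327, 449, 503 and 408 CPM, and M2 kept it from being called. *Ctla4* stood at 408 CPM against 296 CPM.

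Of 17 cytotoxic genes, 8 were called lower in the members than in CD8+ cells and none higher, with a median log2 ratio of -2.09. Within T cell EFF alone 2 were called lower and within T cell MEM alone 10, with medians of -2.12 and -2.50. *Prf1*, which encodes perforin, had 204, 115, 29.5 and 48.5 CPM against 820.4, 879, 968 and 611 CPM, 13.4-fold (95% interval 10.8 to 16.7) lower, and *Nkg7*, a cytotoxic granule protein gene, was 4.18-fold (95% interval 3.87 to 4.51) lower. The transcripts were not at 0: *Gzmb*, the granzyme B gene, had 1053, 493, 445 and 441 CPM in members, 1961, 2505, 3232 and 2304 CPM in CD8+ cells and 957, 780.2, 767 and 874 CPM in Foxp3-positive cells, below CD8+ cells in each library but under 2-fold in M1. Granzyme counts were concentrated in few members, with 177 of 643 *Gzma* UMIs, 47 of 173 *Gzmd* UMIs and 62 of 146 *Gzme* UMIs in the cell with most. *Gzmd*, *Gzme* and *Gzmf* are close copies whose reads may be shared, and were 4.29-fold, 3.66-fold and 19.3-fold lower in the pooled counts. M6 sets the first 2 of these folds, with 152 of 173 *Gzmd* and 122 of 146 *Gzme* UMIs: *Gzmd* had 0, 8.22, 42.1 and 238 CPM in members against 235, 290.2, 904 and 644 CPM, and *Gzme* 0, 8.22, 48.5 and 191 against 186, 234, 613 and 474 CPM.

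Of 19 cell cycle genes, 8 were called lower than in CD8+ cells and none higher, with a median log2 ratio of -1.66. *Mki67*, the gene of the proliferation marker Ki67, had 62.9, 49.3, 44.3 and 31.3 CPM in members and 188, 229, 155 and 156 CPM in CD8+ cells, 4.47-fold (95% interval 3.43 to 5.94) lower, and *Top2a* was 3.6-fold (95% interval 2.93 to 4.48) lower. Within T cell EFF alone 2 of 19 were called lower, with a median of -1.13, and within T cell MEM alone 1 of 11, with a median of -0.12. Within cells labelled T cell MEM alone the median log2 ratio of *Mki67* was 0.45, the opposite direction. Among the other genes with the smallest ratios, *Xcl1*, a chemokine gene of cytotoxic lymphocytes, was 25.2-fold (95% interval 13.7 to 52.5) lower with 10 UMIs in members. *Serpine2*, *Filip1*, *Srgap3*, *Ccnb1*, *Cd160* and *Gm156* had 0 to 13 UMIs in members, and *Gm156*, with none, was at least 20.8-fold lower against a floor of 3 UMIs over the set.

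Conventional CD4+ cells were next set against the 135 Foxp3-positive CD4+ cells of the same labels, which had UMIs of *Foxp3*, *Cd4* and a CD3 chain and none of a CD8 chain. These took 39.4% of the 343 CD4+ cells of both kinds, with 18.5%, 22.6%, 46.1% and 40.8% by library. The intervals were wide in M1 (6.3 to 38.1) and M2 (9.59 to 41.1), which held 5 and 7 Foxp3-positive cells. When the cells were first thinned to equal depth the share was 19.2%, with 6.25%, 18.2%, 21.1% and 20.2% by library. M2 then lay near M5 and M6, and M1 and M2 rested on 1 and 4 Foxp3-positive cells. Thinning also moved some cells with a *Foxp3* UMI into the conventional set. Of 6056 genes, 46 (0.76%) were called higher in the conventional cells and 41 (0.677%) lower, *Foxp3* itself among the latter. The counts changed with each library left out: without M5 they were 104 and 120, without M6 72 and 73, without M1 67 and 74, and without M2 56 and 66. With edgeR's TMM scaling the calls were 52 higher and 30 lower.

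The same 3 ligand genes were called higher in the conventional cells than in Foxp3-positive cells, while *Ltb*, carried by 72.3% of members and 83.6% of Foxp3-positive cells at 2000 UMIs, was not called. Of the 16 helper ligand and cytokine genes compared, 4 were called higher and 0 lower, these 3 and *Ccl1*. Within 1 label alone, *Tnfsf8* was called in both T cell EFF and T cell MEM, *Tnfsf11*, *Ccl1* and *Ifng* in T cell EFF, and *Cd40lg* and *Tnf* in T cell MEM. *Tnfsf8* had 432, 386, 309.8 and 385 CPM in the conventional cells and 0, 0, 6.92 and 44 CPM in Foxp3-positive cells. It was 14.8-fold (95% interval 10.6 to 21.2) higher in the pooled counts and without overlap, though M1 and M2 had 5 and 7 Foxp3-positive cells. *Tnfsf11* had 8.95, 23.3, 27.7 and 55.6 CPM in Foxp3-positive cells and was 9.48-fold (95% interval 7.27 to 12.5) higher in conventional cells. *Cd40lg*, with 1 UMI in Foxp3-positive cells, was 54.5-fold (95% interval 9.33 to 2199) higher. *Tcf7* was 6.9-fold (95% interval 4.57 to 10.8) higher, *Bach2*, a transcription factor that restrains effector differentiation, 8.14-fold (95% interval 3.45 to 23.4), and *Bcl2*, a survival factor, 3.82-fold (95% interval 2.94 to 5.03). *Cxcr6* had 330.1, 403, 588 and 524 CPM against 143, 11.6, 71 and 91.8 CPM, the conventional cells being higher in each library. Within 1 label alone, *Tcf7*, *Bach2* and *Cxcr6* were called in T cell MEM and *Bcl2* in T cell EFF.

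Several cytotoxic and NK-type genes were also higher than in Foxp3-positive cells, 4 of 16 of the list with none lower: *Fasl*, the death ligand, 3.85-fold, *Ctsw* 4.18-fold, *Klrd1*, a chain of the NKG2 receptors, 3.98-fold, and *Klrc1* 5.14-fold. All 4 were called within each label alone as well. They were below the CD8+ level in the pooled counts, *Klrd1* at 291 CPM against 778 CPM. The median log2 ratio of the cytotoxic list against Foxp3-positive cells was 0.45. Its summed level was 7027, 5202, 4938 and 5819 CPM in conventional and 3928, 3039, 6914 and 6406 CPM in Foxp3-positive cells. M5 and M6 thus ran the other way, as did the pooled sums, at 5570 and 6230 CPM. Among the other genes with the largest ratios were *Cd96*, *Jaml*, *Gypc*, *Ehd3*, *Bace2*, *Krt83* and *Calca*, and all but 1 of the 43 *Calca* UMIs lay in 5 members. Of the 20 genes of the regulatory T cell list, 13 reached 20 CPM in conventional cells, 2 were called lower and none higher, with a median log2 ratio of -1.24 beside -0.05 over all genes. *Ikzf2* had 39.3, 288, 447 and 292 CPM in conventional and 644, 1456, 1459 and 1217 CPM in Foxp3-positive cells, 3.97-fold (95% interval 3.58 to 4.41) lower, and *Itgae*, which encodes the integrin CD103, was 3.16-fold (95% interval 2.3 to 4.4) lower. *Il2ra* had 62.9, 131, 148 and 93.8 CPM against 107, 780.2, 462 and 288 CPM and *Ctla4* 408 CPM against 925 CPM, neither called. *Ly6a* was 3.67-fold (95% interval 3.35 to 4.04) lower. Within 1 label alone, *Ikzf2* and *Ly6a* were called lower in both, *Itgae* in T cell EFF, and *Il2ra* and *Ctla4* in T cell MEM.

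Of the genes with the smallest ratios against Foxp3-positive cells, *Mcm2*, *Gins2*, *Chaf1b*, *Spc24*, *Cenph* and *Psmc3ip* act in DNA replication, recombination or chromosome segregation. *Mcm2* was the 1 of 19 genes of the proliferation list called, and the list's median log2 ratio was -1.73, or -1.28 within T cell EFF alone and 0.28, the opposite sign, within T cell MEM alone. *Mki67* had 62.9, 49.3, 44.3 and 31.3 CPM in conventional and 188, 431, 84.8 and 199 CPM in Foxp3-positive cells. *Il6st*, which encodes the shared receptor chain gp130, was 4.28-fold (95% interval 2.43 to 8.04) lower, and *Itih5*, *Rln3*, *Eno3*, *Tubb6* and *Cep85l* were lower with 1 to 11 UMIs in the conventional cells.

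The members were not uniform. Each was thinned to 2000 UMIs, and those with a UMI of *Cxcr6* (chromosome 9, 123806475 to 123811760), 86 of 206, were set beside the 120 without. *Tnfsf11* was seen in 41.9% (95% exact binomial interval 31.3 to 53) against 19.2% (12.6 to 27.4) of those without, *Klrd1* in 34.9% (95% exact binomial interval 24.9 to 45.9) against 13.3% (7.82 to 20.7), and *Csf2* in 14% (95% exact binomial interval 7.42 to 23.1) against 2.5% (0.519 to 7.13). *Cd40lg* was seen in 12.8% against 4.17%, *Lag3* in 17.4% against 5.83% and *Pdcd1* in 33.7% against 20.8%, each with intervals that overlapped, and *Cd40lg* rests on 11 against 5 cells. The direction for *Tnfsf11*, *Csf2* and *Cd40lg* was the same in all 4 libraries, and for *Klrd1*, *Lag3* and *Pdcd1* in 3 of 4. On the other side lay *S1pr1*, in 12.8% (95% exact binomial interval 6.56 to 21.7) against 30% (22 to 39), *Tcf7*, in 16.3% (95% exact binomial interval 9.2 to 25.8) against 30.8% (22.7 to 39.9), *Ikzf2*, in 20.9% against 35%, and *Il7r*, in 41.9% against 55%, each less frequent beside *Cxcr6* in all 4 libraries. *Klf2* was seen in 32.6% against 52.5%. The intervals of *S1pr1* did not overlap, and those of *Tcf7*, *Ikzf2*, *Il7r* and *Klf2* did. *Il2ra* ran the other way from *Ikzf2*, in 19.8% against 10.8%. The cytotoxic genes *Gzmb* (22.1% against 33.3%), *Prf1* (4.65% against 7.5%) and *Gzma* (24.4% against 26.7%) ran the other way from *Klrd1*. The intervals of *Il2ra* and of these cytotoxic genes overlapped. *Gata3* (30.2% against 27.5%), *Icos* (75.6% against 76.7%) and *Tnfsf8* (34.9% against 28.3%) had intervals that overlapped widely.

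**Figure D4:**
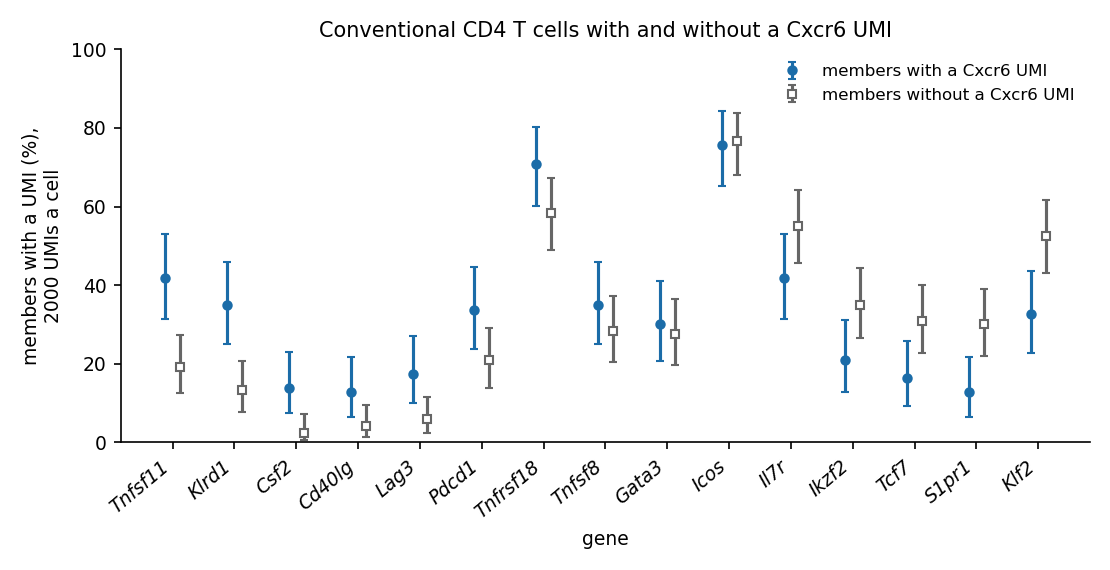
Percentage of members with a UMI of each gene (y axis) among members with a *Cxcr6* UMI (filled circles) and without one (open squares), each cell thinned to 2000 UMIs, with 95% exact binomial intervals. *Tnfsf11*, *Klrd1* and *Csf2* stand higher among cells with *Cxcr6*, and *S1pr1*, *Tcf7* and *Klf2* higher among cells without it, the intervals of *Tcf7* and *Klf2* overlapping.

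Members with an *S1pr1* UMI (47 of 206) differed from the rest in several of the same genes. *Klf2* was seen in 70.2% (95% exact binomial interval 55.1 to 82.7) against 36.5% (29 to 44.5) of members without *S1pr1*, *Cxcr3* in 42.6% (95% exact binomial interval 28.3 to 57.8) against 16.4% (11 to 23) and *Emb* in 89.4% against 71.7%. *Csf2* was seen in none of the *S1pr1*-bearing members, which allows a share of up to 6.38%, and in 9.43% of the others. *Il2ra* (4.26% against 17.6%), *Lag3* (2.13% against 13.2%), *Tnfrsf9*, which encodes 4-1BB (27.7% against 56%), and *Tnfrsf18* (51.1% against 67.3%) were less frequent beside it. The first 3 were lower in all 4 libraries, and the intervals of *Tnfrsf9* alone did not overlap. *Cd40lg* was seen in 17% against 5.03%, or 8 against 8 cells with overlapping intervals, and *Tnfsf8* (29.8% against 31.4%) and *Pdcd1* (25.5% against 26.4%) differed little. The memory label was carried by 78.7% against 62.3% of members with and without *S1pr1*, and by 54.7% against 74.2% of those with and without *Cxcr6*, and the part of this mix in the gene differences was not tested. Cells of 1 library are not independent replicates, and these frequencies are descriptions.

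The authors' labels divide the members into 71 effector and 137 memory cells, and since the label was drawn from the whole profile, what separates them describes the label. The effector cells of M1 and M2 numbered 7 and 6, where 1 UMI is worth 17.6 and 25.5 CPM. Of 6020 genes, 21 (0.349%) were called higher in effector members and 30 (0.498%) lower. Without M1, M2, M5 or M6 the higher calls were 58, 58, 52 and 94 and the lower calls 79, 68, 90 and 91, and with TMM scaling 14 were higher and 32 lower. Of 17 cell cycle genes compared, 3 were called higher in effector members, *Mcm5*, *Tyms* and *Cdk1*, and none lower. The summed level of the list was 4031, 1120.0, 2783 and 2287 CPM in effector and 1094, 1396, 1098 and 1188 CPM in memory members, so that M2 ran the other way. *Pclaf*, *Uhrf1* and *Ncapg2*, which also act in dividing cells, and *Klri2*, an NK-type receptor gene, were among the largest, with 16 *Klri2* UMIs against 1. *Cit*, *Sgf29*, *Dlg2*, *Slc37a2*, *Farp1*, *Mfn1* and *Thyn1* had 11 to 31 UMIs in effector members.

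Memory members had more of 3 of the 10 naive and circulating genes, *Klf2*, *Klf3* and *Tcf7*, at 3.12-fold, 2.99-fold and 2.53-fold, and of 4 of 19 interferon response genes, *Ifit3*, *Rsad2*, *Rtp4* and *Iigp1*. Few cells held much of the first 2 of these 4: 33 of 44 *Ifit3* UMIs and 21 of 37 *Rsad2* UMIs lay in the 5 members with most of each. *Il7r*, the interleukin-7 receptor gene, had 158, 102, 196 and 293 CPM in effector and 398, 534, 584 and 486 CPM in memory members, and M6 kept it from being called. *Lag3* and *Csf2* pointed the other way without being called, *Lag3* with 141, 535, 86.6 and 212 CPM in effector against 56.8, 97.1, 49.8 and 38.2 CPM in memory members. *Il1b*, *S100a9*, *Il1rn* and *Clec4d*, genes of myeloid cells, were among the genes lowest in effector members, and they sat in few cells: 299 of 312 *S100a9* UMIs and 286 of 384 *Il1b* UMIs were in the 4 cells with most of each. The summed level of the macrophage and monocyte list was 485 CPM in effector and 882 CPM in memory members, and its part in these differences was not tested. The dendritic cell and B cell lists were at 164 and 12.9 CPM in effector and 351 and 67.1 CPM in memory members. In the pooled counts the NK cell, stroma and mast cell lists summed higher in effector members. Their levels were 636, 73.7 and 75.6 CPM in effector and 621, 61 and 36.6 CPM in memory members. The NK cell list ran the other way in M5 (410 against 561 CPM) and M6 (450 against 664 CPM), and the stroma list in M2 and M5. *St8sia1*, *Armc7*, *Ier3*, *Gtf3c2*, *Mirt1* and *Upp1* completed the 12 genes with the smallest ratios. Neither target separated the labels by the rule: *Pdcd1* had 123, 255, 468 and 392 CPM in effector and 142, 36.4, 252 and 347 CPM in memory members, and *Tnfrsf18* 669, 713, 612 and 761 and 526, 837, 604 and 637 CPM.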

How the data were processed

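Single-cell mRNA-seq with 10x Genomics 3' V3 chemistry was performed by the authors on CD45+-enriched cells of CT26 tumors. Per the labels and the methods, the authors counted UMIs per gene and cell with Cell Ranger 3.0.2 on the mm10 (GRCm38) reference, kept cells over a minimum of UMIs, and labelled each cell by its highest correlation with ImmGen profiles. The deposited counts are raw and not normalized, for 33961 cells and 31053 genes, with 315577167, 264465059, 158337797 and 176937027 UMIs in M1, M2, M5 and M6. No removal of doublets or of free RNA is named, and none was done here. The number of genes, the library and the label of each cell came from the deposited metadata.

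Members and gene lists were chosen with earlier results of these data known. UMIs were summed over the cells of a set within a library and scaled to CPM. Ratios used log2(CPM + 1), and a gene of 20 CPM or more in either pooled set was called when at least 2-fold apart in the same direction in all 4 libraries. Named genes were those of the rule, both targets, the 4 most abundant or called genes of each list, the defining factors and cytokines of each helper list, and the 12 called genes with the largest and the 12 with the smallest median ratio. No treatment comparison was made and no p-value is given, because no library could be matched to a sample. Shares were taken after thinning each cell to 2000 UMIs without replacement. Binomial, Poisson and conditional intervals are exact, at 95%. Calls and thinning were tested on simulated data. Alternatives changed the *Cd4* minimum, thinning depth (1000 and 4000 UMIs), pseudocount, filter, scaling (edgeR 4.0.16 TMM or the mean of single-cell CPM), libraries and labels. Others left out members over 10% mitochondrial or 0.5% macrophage UMIs or with *Il2ra* or *Ikzf2*. Scripts ran in Python 3.11.15 with pandas 2.3.3, scipy 1.17.1 and numpy 2.4.6, and gene positions came from GENCODE M21 on GRCm38. *Folr4* and *Znf683* of the lists are absent from the table under those symbols, and a few other genes are not reported here.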

Additional observations from a re-analysis of the deposited data

How the results depend on the processing

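The libraries carry no group, so no paired analysis was possible because the replicate numbers of the labels belong to samples that no library was matched to. Each value leans on few cells, on depth and on captured *Cd4* and *Foxp3* UMIs. The members' share was 2.74% with 2 or more *Cd4* UMIs, 3.48% with thinned cells, 1.78% without *Il2ra* and *Ikzf2* UMIs, and 3.25 to 4.94% with 1 library left out. Shares with a UMI moved with depth and with the members deep enough, 208 at 1000 UMIs and 172 at 4000 UMIs. At 1000, 4000 and all UMIs *Cd40lg* had 4.33, 13.4 and 18.3%, *Pdcd1* with *Tnfrsf18* 9.62, 36 and 41.8%, and *Tnfsf8* or *Tnfsf11* 35.1, 54.7 and 52.9%. With 1 library left out these were 7.07 to 8.2, 8.85 to 18.8 and 40.7 to 46.4%. Without *Il2ra* and *Ikzf2*, *Tnfsf8* or *Tnfsf11* was in 51.8%, *Tnfrsf18* was at 547 CPM and *Pdcd1* at 226 CPM, and *Pdcd1* ranged from 258 to 329 CPM with 1 library left out. Against CD8+ cells, 48 genes were higher within effector and 47 within memory cells, 33 and 36 of them shared with the 87. Within effector cells 108 were lower and within memory cells 85, 65 and 47 of them shared with the 142, while without a filter 535 were lower. Leaving out 1 library gave 113 to 123 higher and 179 to 192 lower. TMM scaling moved the median of all genes against CD8+ cells from -0.03 to -0.14. Of the calls, 76 of 87 higher and 142 of 142 lower remained, with 166 lower in all. With the mean of single-cell CPM 64 of 87 and 90 of 142 remained. The same mean kept 33 of 46 and 25 of 41 calls against Foxp3-positive cells, and 9 of 21 and 16 of 30 between the labels. With thinned cells 47 of 87 and 67 of 142 remained. Against Foxp3-positive cells, higher calls were 74 without a filter, 88 within memory cells, 91 with thinned cells and 56 to 104 with 1 library left out, and lower calls 21 with a pseudocount of 5 CPM, 72 without a filter, 69 within effector cells, 18 within memory cells and 66 to 120 with 1 library left out. Of 46 higher and 41 lower calls, 27 and 10 were shared with thinned cells, where 35 were lower, 25 and 23 within effector and 22 and 4 within memory cells. On M5 and M6 alone, an alternative chosen after the cell numbers were seen, 86 were higher and 138 lower. Between the labels, higher calls were 10 with a pseudocount of 5 CPM, 34 without a filter and 52 to 94 with 1 library left out, and lower calls 62 without a filter and 68 to 91 with 1 library left out. Fewer libraries make fewer conditions to meet; other causes were not tested. The median log2 ratio changed sign for *Mki67* against CD8+ cells within memory cells (0.45) and for *Pdcd1* against Foxp3-positive cells when thinned (-0.0861), and was 0 for *Mcm2* against Foxp3-positive cells within memory cells. Of 777 alternatives for 75 values of single genes, 533 stayed within their limits, 241 moved beyond them and 3 changed or lost their sign. The limits of shares and levels were their counting intervals. Those of log2 ratios were centered on the median over libraries and had the width of the pooled ratio's counting interval. A fixed width was used where that interval was not bounded on both sides. A sign was scored for log2 ratios only, not for shares or levels. Of 131 alternatives for the 13 main results, 83 stayed within their limits, 48 moved beyond them and 0 reversed. For counts of called genes these limits were a fixed fold band around the main count, not a counting interval.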

Other observations

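Cells with the transcripts of a conventional CD4+ T cell were not confined to the labels T cell EFF and T cell MEM. Over all 12 labels, 621 cells had *Cd4* and a CD3 chain and no *Cd8a*, *Cd8b1* or *Foxp3* UMI, of which 123 were labelled NKT, 93 ILC, 69 Myeloid, 47 T cells, 44 Stroma and 23 T cell Naive. The 621 include the 208 members. Those labelled NKT and T cells had 4250 and 4468 UMIs a cell at the median, with *Tnfsf8* at 336 and 339.8 CPM and *Cd40lg* at 40.7 and 21.7 CPM. Those labelled ILC, Myeloid and Stroma had medians of 14505, 17003 and 60299.5 UMIs and *Tnfsf8* at 87.3, 56.3 and 9.72 CPM.

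Among chemokine receptors, 6 of 16 reached 20 CPM in the members, and *Ccr2* (3.65-fold), *Cxcr3* and *Cxcr4* (4.36-fold) were called higher than in CD8+ cells and *Cx3cr1* lower, while within either label alone none was called higher and *Cx3cr1* was called lower in both. Of 20 interferon response genes, 19 reached 20 CPM and none of the 19 compared was called against CD8+ or Foxp3-positive cells, with *Ifi27l2a* at 2092 CPM in members against 940.4 and 2511 CPM. Of 18 genes that respond to T cell receptor signals, 14 reached 20 CPM and *Nr4a2* was the 1 called, 3.39-fold (95% interval 2.97 to 3.9) lower than in CD8+ cells. None of the 19 cytokine receptor genes compared was called against CD8+ cells, and *Il6st* was the 1 called against Foxp3-positive cells. Of 11 memory and survival genes compared, *Cd5*, an inhibitory T cell surface receptor gene, was called higher than in CD8+ cells, at 4.36-fold, and of 8 tissue residency genes compared none was. Of the regulatory T cell list, *Nrp1* and *Izumo1r* were called higher than in CD8+ cells and *Entpd1* lower, with *Nrp1* and *Entpd1* called within T cell EFF alone and none within T cell MEM alone.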
